A study of Mus musculus with 9 samples.

Results

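The complement system was followed in the mouse heart through 9 genes, chosen by symbol: the 3 chains of C1q (C1qa, C1qb and C1qc), the proteases C1ra and C1s1, the central components C4b and C3, the receptor C3ar1 and the membrane regulator Cd55. They are 9 of the 22851 genes in the count matrix and 9 of the 45 described from a longer complement list. All 9 had enough counts to be tested in every comparison. C1q binds immune complexes or dying cells and activates C1r and then C1s, which cleaves C4 and leads to the cleavage of C3. The fragment C3a signals through its receptor on myeloid cells, while CD55 breaks up the convertases on the surface of host cells. Most plasma complement is made in the liver, whereas C1q is made mainly by macrophages, and fibroblasts and other stromal cells also express C1r, C1s, C4 and C3. RNA from tissue holds the transcripts of all these cells together, so fewer cells of a type and less RNA per cell cannot be told apart, and where in the heart a transcript was made was not measured.

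The series compared the myocardium of male C57BL/6 mice (C57BL/6J in the study's methods), 6 to 8 weeks old at the start, in 3 groups of 3 libraries. The controls (CK) were given citrate buffer alone, the diabetic cardiomyopathy model group (DCM) was given 1 injection of streptozotocin, a toxin of pancreatic beta cells, and the spermine group (SPM) was given both streptozotocin and the polyamine spermine at 1 mg/kg. Spermine was started 2 weeks before streptozotocin, and hearts were taken 12 weeks after it. No group was given spermine without streptozotocin, so the SPM group differs from CK by both agents. The study's methods give the RNA as that of 3 mice per group in one place and as pools of 6 hearts in another, so the p-values measure the spread between these libraries, which may be less than that between animals.

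Total counts lay between 29901300 and 39718680 per library. The extraction protocol speaks of retina, but Myh6, the alpha myosin heavy chain of cardiomyocytes, lay between 13964 and 25845 normalized CPM, the count scaled by library total and composition, and 6 photoreceptor genes summed to at most 1.67 CPM. The libraries of SPM replicates 1 and 2 and, less so, CK replicate 2 held liver transcripts: albumin (Alb) stood at 248, 113 and 28.2 CPM in them, against 0.264 to 2.39 CPM in the other 6. SPM replicate 2 lay between SPM replicates 1 and 3 for 66.4% of genes, where the other 8 libraries lay between their partners for 19.0% to 40.6%. It had a count for 30 of the 2656 genes without any in SPM replicates 1 and 3, against 485 to 1162 such genes for each other library. Whether it is independent of the other SPM libraries was not tested, so n = 3 may overstate the number of independent SPM libraries and their SD and SE may be too small. Some SPM results, though not all, are also given without the libraries that held liver transcripts.

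In the deposited FPKM values, which are scaled by gene length so that levels of different genes can be compared, the C1q chains and C3 were the most abundant of the 9 genes in every group. In CK, C1qa led with 92.6 ± 16.4 FPKM (SD, n = 3), followed by C1qb with 82.2 ± 16.4, C3 with 77.2 ± 6.62 and C1qc with 67.6 ± 10.1. These 4 genes overlapped with their neighbours in the order, and all stood above C1ra with 11.8 ± 0.754 and C4b with 11.0 ± 1.66 FPKM. Cd55, C3ar1 and C1s1 came last with 4.08 ± 0.674, 2.98 ± 0.932 and 2.23 ± 0.305 FPKM. In DCM the order changed at the top: C3 led with 83.9 ± 8.83 FPKM, above C1qa with 60.5 ± 10.3 in every library. C3 also led in SPM with 141 ± 30.9 FPKM, where it ranked 367 among all genes by mean level, against 680 in CK and 611 in DCM. In SPM its range overlapped that of C1qa, which was 99.9 ± 30.6 FPKM. C4b stood at 21.0 ± 6.86 FPKM in SPM, above C1ra with 13.5 ± 0.624 in every library.

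**Figure D1:**
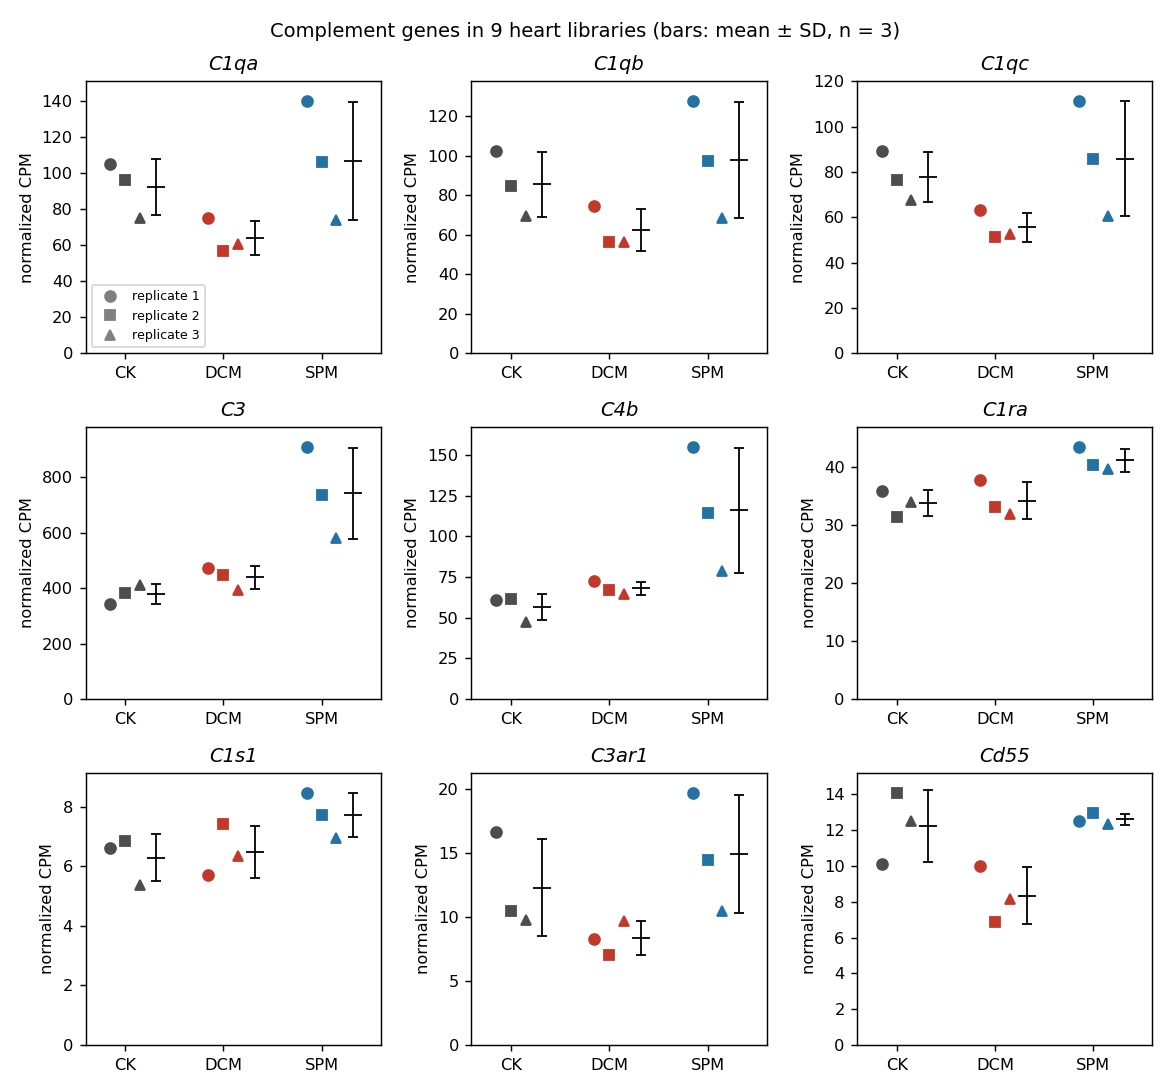
Normalized CPM of each of the 9 complement genes (y axis, starting at 0) in the 3 libraries of CK, DCM and SPM (x axis), with the marker shape giving the replicate number and the bars the mean ± SD (n = 3). C3 and C4b are highest in the SPM libraries, whereas the C1q chains dip in DCM and spread widely in SPM.

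The 3 chains of C1q, which assemble into 1 recognition molecule, were lowest in DCM and moved together in every library. Their genes lie side by side on the minus strand of chromosome 4 (GRCm38), C1qb at chr4:136880129-136886187, C1qc at chr4:136889804-136893065 and C1qa at chr4:136895917-136898803. For C1qb, the 250 bases before its RefSeq start (GRCm38.p6, chr4:136886201-136886450, minus strand), which lie between C1qb and C1qc, are shown, with a match to the core motif of PU.1, the macrophage and B cell transcription factor, in capitals.
C1qb promoter: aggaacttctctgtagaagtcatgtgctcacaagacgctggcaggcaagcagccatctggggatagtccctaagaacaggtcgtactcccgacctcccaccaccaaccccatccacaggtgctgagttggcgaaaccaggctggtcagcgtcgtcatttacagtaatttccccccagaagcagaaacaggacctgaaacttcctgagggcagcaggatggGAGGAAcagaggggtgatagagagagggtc
The match begins 30 bases before the start. The letters GAGGAA, searched on both strands, occur in 23.3% of the 32851 mouse promoter windows of this length, so a match is a description and not a binding site. Letters of the interferon-stimulated response element (ISRE, in 2.98% of windows), the gamma-activated site (TTCNNNGAA, 7.02%) and the TATA box (TATAAA, 12.4%) were not in this window.

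C1qa was measured at 105, 96.3 and 75.0 CPM in CK, and at 74.9, 56.5 and 60.6 CPM in DCM. SPM replicates 1 to 3 held 140, 106 and 74.0 CPM. The DCM libraries lay below all CK libraries, by a narrow margin at the edge, while SPM replicate 3 fell within the DCM range. C1qb stood at 102, 84.7 and 69.6 CPM in CK, 74.5, 56.1 and 56.5 CPM in the DCM libraries and 127, 97.2 and 68.6 CPM in the SPM libraries, so both comparisons with DCM overlapped. C1qc stood at 89.4, 76.6 and 67.5 CPM in CK, 63.1, 51.1 and 52.7 CPM in the DCM libraries and 111, 85.8 and 60.8 CPM in the SPM libraries. Here too DCM lay below all CK libraries and overlapped with SPM replicate 3.

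Compared with CK, none of the 9 genes passed both limits for a differentially expressed gene (DEG), at least 1.5-fold and an adjusted p below 0.05, in DCM by the quasi-likelihood test of edgeR, while 4.34% of the 14402 genes tested did. At an unadjusted p of 0.05, 7 of the 9 passed, as did 24.6% of all genes tested. DESeq2 called none of them either, and limma on log2 FPKM called 1. The study, which used DESeq2 with the same limits, lists Cd55 as changed in DCM and reversed by spermine. In the DESeq2 fit made here Cd55 was at -0.54 (DESeq2, adjusted p = 0.0266), under the fold limit. The nearest were C1qa, whose log2 fold change was -0.52 ± 0.13 (SE; edgeR, adjusted p = 0.0202), and C1qc with -0.48 ± 0.11 (adjusted p = 0.0144), both under the fold limit. At the adjusted p alone 10.4% of all genes passed. C1qb was at -0.45 ± 0.14 (adjusted p = 0.054). By libraries alone, 4 of the 9 genes (C1qa, C1qc, C3ar1 and Cd55) were lower in every DCM than in every CK library and 1 (C4b) was higher, where 14.8% of all genes tested were so separated downward and 14.5% upward. The call depended on 1 library for some genes: without DCM replicate 1, C1qa, C1qb and Cd55 passed both limits, without CK replicate 3, C1qa and C3ar1 did, and without CK replicate 1, Cd55 did. For these fits, and for DESeq2 and limma, the share of all genes that were DEGs was not counted.

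Compared with DCM, all 3 chains rose in SPM. The log2 fold change was 0.73 ± 0.19 for C1qa (edgeR, adjusted p = 0.0297), 0.65 ± 0.19 for C1qb (adjusted p = 0.0428) and 0.63 ± 0.18 for C1qc (adjusted p = 0.0385). They belong to the 7 of 9 genes that were upregulated DEGs in this comparison, where 3.59% of the 14493 genes tested were DEGs and 2.7% were upregulated. The rise in C1q rested on SPM replicates 1 and 2, the libraries with liver transcripts. Without both, the log2 fold change was 0.20 for C1qa (adjusted p = 0.474), 0.13 for C1qb (adjusted p = 0.682) and 0.13 for C1qc (adjusted p = 0.688), with the lone SPM library assumed to vary like the others. SPM against CK gave 0.21 ± 0.21, 0.19 ± 0.21 and 0.14 ± 0.19 for C1qa, C1qb and C1qc, with adjusted p from 0.485 to 0.622 and overlapping libraries. Without SPM replicate 1 these values turned to -0.036, -0.049 and -0.090.

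The proportion of the chains was nearly fixed. C1qa made up 38.1% ± 0.961 of their summed FPKM (SD over 9 libraries), C1qb 34.2% ± 0.749 and C1qc 27.7% ± 0.814. Across the 9 libraries the log2 CPM of each chain was most like that of the others, with Pearson r from 0.991 to 0.992 among 14908 other genes. The next most alike gene was Lyz2, the lysozyme of myeloid cells, for C1qa (r = 0.984) and C1qb (r = 0.973), and Fcgr3, a receptor for immunoglobulin G, for C1qc (r = 0.987). These points share the 3 groups and the liver-bearing libraries, and no test was made of them.

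The summed level of 13 macrophage markers was, like that of C1q, lowest in DCM by mean. It was 669 to 855 CPM in CK, 584 to 662 CPM in DCM and 682 to 1112 CPM in SPM, none of them being at 0 throughout, and Lyz2 and Csf1r, the receptor for macrophage colony-stimulating factor, were the most abundant. Lyz2 averaged 420 ± 63.3 CPM in CK, 297 ± 34.5 in DCM and 456 ± 138 in SPM, and Csf1r 130 ± 21.3, 93.1 ± 8.73 and 110 ± 14.5 CPM (SD, n = 3). In DCM, 2 of the 13 fell against CK, and in SPM, 4 of 13 rose against DCM. Of all genes tested, 4.34% and 3.59% were DEGs in these 2 comparisons. Summed C1q per summed macrophage marker was 0.324 ± 0.020 in CK, 0.297 ± 0.021 in DCM and 0.327 ± 0.025 in SPM, with overlapping ranges. The marker sum averaged 786, 611 and 879 CPM in the same order, and Lyz2 was its largest part. Since Lyz2 was also the gene outside C1q most like C1qa and C1qb, this overlap partly restates that likeness. Csf1r was lower in SPM than in CK by mean, whereas summed C1q was higher, at 290 ± 87.6 against 256 ± 42.4 CPM. In replicates 1 to 3, summed C1q was 297, 258 and 212 CPM in CK, beside 150, 134 and 108 CPM of Csf1r. In DCM it was 212, 164 and 170 CPM beside 102, 92.3 and 84.7 CPM, and in SPM 379, 289 and 203 CPM beside 124, 109 and 95.4 CPM. The overlap thus holds for the marker sum and need not hold for each marker, and C1q was not divided by Csf1r alone. The part of macrophage number in the C1q values was not tested.

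The genes of C1r and C1s, the proteases carried by C1q, were DEGs in none of the comparisons. C1ra (chr6:124512405-124523443) stood at 35.8, 31.4 and 34.1 CPM in CK, 37.8, 33.1 and 31.9 CPM in the DCM libraries and 43.5, 40.4 and 39.7 CPM in the SPM libraries. All SPM libraries lay above all DCM and all CK libraries, while CK and DCM overlapped. The log2 fold change was 0.02 ± 0.09 for DCM against CK (edgeR, adjusted p = 0.914), 0.26 ± 0.08 for SPM against DCM (adjusted p = 0.0502) and 0.28 ± 0.07 for SPM against CK (adjusted p = 0.0206, under the fold limit, where 27.4% of all genes passed the adjusted p alone). C1s1 (chr6:124530345-124542359) was the scarcest of the genes by mean CPM in every group. It stood at 6.60, 6.87 and 5.39 CPM in CK, 5.71, 7.42 and 6.33 CPM in the DCM libraries and 8.47, 7.72 and 6.97 CPM in the SPM libraries. SPM exceeded all CK libraries but overlapped with DCM. Its log2 fold change was 0.04 ± 0.16, 0.25 ± 0.14 and 0.29 ± 0.14 in the same order of comparisons, with adjusted p from 0.154 to 0.917. Without SPM replicates 1 and 2, the log2 fold change against DCM was 0.21 for C1ra and 0.10 for C1s1.

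Reads of these proteases can be shared with near copies. Of the 50-base windows in the transcript of C1ra 48.0% occur also in C1rb, and of those of C1s1 24.3% in C1s2, which makes the split between copies uncertain. The copies had few counts, 1 to 7 per library for C1rb and 0 to 10 for C1s2. C1s1 also overlaps the antisense gene Gm16567, which was not analysed here. Among all genes, C1ra was most like Emc7 (Pearson r = 0.948), Serping1 (r = 0.938), which encodes the inhibitor of C1r and C1s, and Acer3 (r = 0.936) across the 9 libraries. C1s1 was most like Foxk1 (r = 0.933), Pfkfb2 (r = 0.924) and Uchl3 (r = 0.923).

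C3 and C4b, the central components, were highest in SPM. C4b (chr17:34728380-34743882) stood at 60.6, 61.2 and 47.2 CPM in CK, 72.6, 66.8 and 64.5 CPM in the DCM libraries and 155, 115 and 78.5 CPM in the SPM libraries. The 3 groups did not overlap, with CK lowest and SPM highest. C4b had a log2 fold change of 0.27 ± 0.10 for DCM against CK (edgeR, adjusted p = 0.112), 0.77 ± 0.19 for SPM against DCM (adjusted p = 0.025) and 1.03 ± 0.22 for SPM against CK (adjusted p = 0.00982).

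C3 (chr17:57203970-57228136, minus strand), cleaved at the point where all activation routes meet, stood at 342, 383 and 413 CPM in CK and 474, 449 and 394 CPM in DCM. In SPM it was measured at 910, 738 and 580.5 CPM, and every SPM library lay above all others. The log2 fold change was 0.21 ± 0.09 for DCM against CK (edgeR, adjusted p = 0.179), 0.76 ± 0.14 for SPM against DCM (adjusted p = 0.0128) and 0.96 ± 0.15 for SPM against CK (adjusted p = 0.00293). C3 and C4b were the 2 of 9 genes that were DEGs between SPM and CK, where 9.21% of the 14574 genes tested were DEGs and 5.08% were upregulated. The comparisons are not independent, since each pair of them shares the libraries of a group.

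Because C3 was the most strongly expressed of the genes in SPM, the 250 bases before its RefSeq start (GRCm38.p6, chr17:57228137-57228386, minus strand) are shown, with a match to TTGCNNAA, the letters searched for C/EBP factors, in capitals.
C3 promoter: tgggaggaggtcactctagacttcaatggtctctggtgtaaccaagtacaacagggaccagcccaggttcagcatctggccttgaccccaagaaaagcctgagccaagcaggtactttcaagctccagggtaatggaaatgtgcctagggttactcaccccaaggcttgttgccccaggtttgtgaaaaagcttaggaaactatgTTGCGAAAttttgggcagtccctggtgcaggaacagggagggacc
C/EBP proteins are transcription factors of the acute phase response. The match begins 45 bases before the start, and such letters occur on either strand in 9.56% of the promoter windows.

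Liver is a main source of both transcripts in the body, and the level of Alb moved with C3 and C4b within SPM. In SPM replicate 3 Alb was 0.293 CPM, within the 0.264 to 0.352 CPM of the DCM libraries. In this 1 library C3 and C4b were at 580.5 and 78.5 CPM, above every DCM and CK library. For C4b the margin was narrow, with 72.6 CPM in DCM replicate 1. The part of liver RNA in the C3 and C4b values was not tested. Without SPM replicates 1 and 2, the log2 fold change against DCM was 0.40 for C3 (adjusted p = 0.153) and 0.20 for C4b (adjusted p = 0.427). Against CK, without these and CK replicate 2, C3 was at 0.62 and passed both limits (adjusted p = 0.0412), and C4b was at 0.55 (adjusted p = 0.132). That fit sets 1 SPM library against 2 CK libraries, so its spread comes from the CK libraries alone. Against CK both passed in every fit that left out a single library, with log2 fold changes from 0.79 to 1.11 for C3 and from 0.77 to 1.25 for C4b. Each of these fits kept SPM replicate 1 or 2, so they cannot show the part of liver RNA. The 12 liver markers summed to 14.99 to 55.0 CPM in CK, 27.7 to 32.1 CPM in DCM and 31.3 to 393 CPM in SPM, with Alb and the plasma protein Ahsg the most abundant, and Ahsg was present in every library at 9.76 to 41.6 CPM.

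The ratio of C3 to C4b was 6.89 ± 1.65 in CK, 6.45 ± 0.317 in DCM and 6.57 ± 0.769 in SPM, with overlapping ranges. C4b shares 35.2% of its 50-base windows with its copy C4a, which had 3 to 50 counts per library against at least 1454 for C4b. Across the libraries C3 was most like Ms4a6d (r = 0.975), Lncppara (r = 0.973) and Snhg5 (r = 0.971), and C4b was most like F13a1 (r = 0.982), Rpl4 (r = 0.98) and Pld4 (r = 0.979). F13a1, the A chain of coagulation factor XIII, is one of the macrophage markers.

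**Figure D2:**
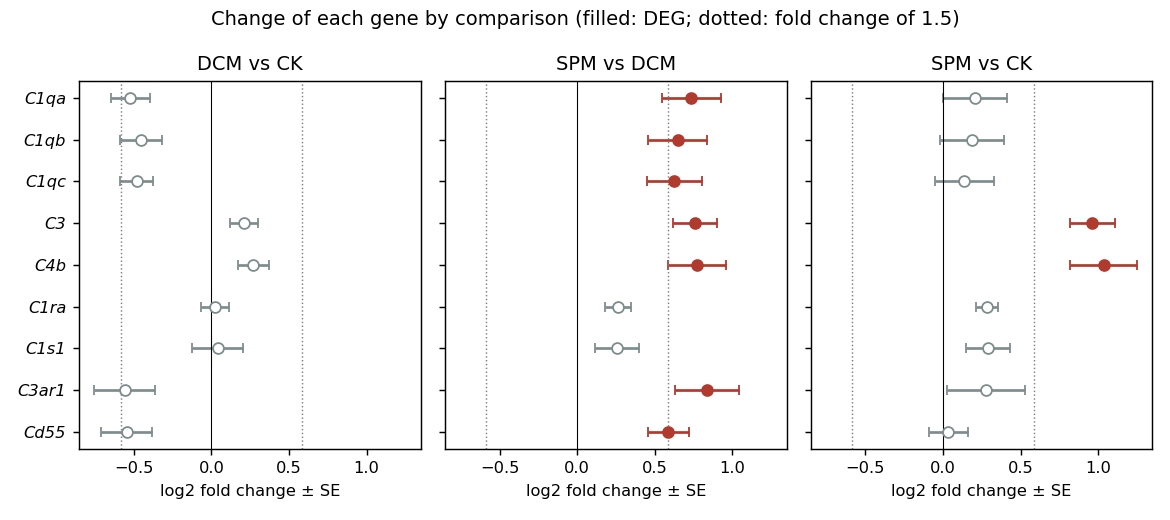
The log2 fold change ± SE of each gene (edgeR, 3 libraries per group) in the 3 comparisons. Filled points are DEGs and dotted lines mark a fold change of 1.5. All points lie above 0 for SPM against DCM, with 7 of 9 filled, and only C3 and C4b are filled for SPM against CK.

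C3ar1 (chr6:122847138-122856161), the receptor for C3a, was measured at 16.6, 10.5 and 9.73 CPM in CK, 8.27, 7.01 and 9.67 CPM in the DCM libraries and 19.7, 14.5 and 10.5 CPM in the SPM libraries. DCM lay below all libraries of both other groups, by a narrow margin. C3ar1 had a log2 fold change of -0.56 ± 0.20 for DCM against CK (edgeR, adjusted p = 0.0971), 0.84 ± 0.20 for SPM against DCM (adjusted p = 0.0253) and 0.27 ± 0.25 for SPM against CK (adjusted p = 0.443). Without SPM replicates 1 and 2 the value against DCM was 0.33 (adjusted p = 0.442). The most alike genes were Ms4a7, a macrophage marker (r = 0.965), Cfap300 (r = 0.964) and Csf2rb2 (r = 0.962).

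Cd55 (chr1:130439027-130462744), which protects host cells from complement, stood at 10.1, 14.1 and 12.5 CPM in CK, 10.003, 6.87 and 8.18 CPM in the DCM libraries and 12.5, 12.97 and 12.4 CPM in the SPM libraries. The SPM libraries were the closest together of any group, at 12.6 ± 0.313 CPM (SD, n = 3), and lay above all DCM libraries. The log2 fold change was -0.55 ± 0.16 for DCM against CK (edgeR, adjusted p = 0.0525), 0.59 ± 0.13 for SPM against DCM (adjusted p = 0.0204) and 0.04 ± 0.13 for SPM against CK (adjusted p = 0.853). Its fold change of 1.504 against DCM sat at the limit. Without the liver-bearing SPM replicates 1 and 2, whose Cd55 was like that of SPM replicate 3, the log2 fold change was 0.56, with an adjusted p of 0.15. The value fell to 0.37 (adjusted p = 0.101) after correction for GC content. The antisense gene Gm16083, which overlaps Cd55, had 43 counts over all libraries, and 10.7% of the 50-base windows of Cd55 occur in Cd55b, which had 0 or 1 count per library. Cd55 was most like Dab2 (r = 0.974), A630001G21Rik (r = 0.973) and Mndal (r = 0.97).

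Of the 9 genes, 5 (C1ra, C4b, C3, C3ar1 and Cd55) were higher in every SPM than in every DCM library, where 19.7% of the genes tested were so separated. Between SPM and CK it was 4 of 9 (C1ra, C1s1, C4b and C3) against 23.3%. The median log2 fold change of the 9 genes was -0.45 for DCM against CK, 0.65 for SPM against DCM and 0.27 for SPM against CK, beside medians of -0.002, 0.006 and 0.002 over all genes tested. How far the 7 DEGs between SPM and DCM depended on single libraries was checked by leaving out each in turn. Without SPM replicate 3 the number of DEGs remained 7, without DCM replicate 1 or DCM replicate 3 it was 2, without SPM replicate 1 it was 1 (Cd55), and without DCM replicate 2 or SPM replicate 2 it was 0. In these last 2 fits 9 and 8 of the genes passed at an unadjusted p of 0.05, where 27.2% and 22% of all genes did, and all 9 kept a positive fold change in every fit. DESeq2 called 3 (C3, C3ar1 and C4b) and limma called 1 (C3). The share of all genes that were DEGs was not counted in these fits. Fewer calls among the 9 genes therefore cannot be told apart from fewer calls over all genes.

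The ratio of C1q to C3, C4b, C1ra and C1s1 together, of which C3 was the largest part, differed between CK and the diabetic groups. The summed CPM of the C1q chains, divided by that of C3, C4b, C1ra and C1s1, was 0.666, 0.533 and 0.424 in the CK libraries. The DCM libraries gave 0.360, 0.295 and 0.342, and the SPM libraries gave 0.339, 0.321 and 0.288. Every CK library was above every DCM and SPM library, whereas DCM and SPM overlapped, at 0.332 ± 0.034 and 0.316 ± 0.026. C1q and the other genes were both higher in SPM than in DCM by mean level. By mean, C3 held 380 of the 476 CPM in the denominator in CK, 439 of 548 in DCM and 743 of 908 in SPM. The ratio therefore mainly sets C1q against C3, and C1q against C1ra and C1s1 alone was not computed. No test was made of this ratio.

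By sum, fibroblast markers were lower in DCM and SPM than in CK, unlike C3, but not every marker followed the sum. The sum was higher in SPM than in DCM, as was C3. The 9 fibroblast markers summed to 2143 to 2233 CPM in CK, 1459 to 1546 CPM in DCM and 1700 to 1778 CPM in SPM, none of them being at 0 throughout. In DCM and in SPM 4 of the 9 fell against CK, where 4.34% and 9.21% of all genes tested were DEGs, and none passed between SPM and DCM. The most abundant, Dcn, averaged 795 ± 59.0, 774 ± 24.3 and 992 ± 86.0 CPM in CK, DCM and SPM, and Col3a1 averaged 496 ± 11.8, 170 ± 15.9 and 175 ± 63.3 CPM. Dcn, like C3, was higher in every SPM library, at 909 to 1080 CPM, than in every DCM and CK library. C3 was not divided by Dcn alone. C3 per summed fibroblast marker was 0.174 ± 0.015 in CK, 0.292 ± 0.027 in DCM and 0.429 ± 0.105 in SPM, and the ranges of the 3 groups did not overlap. C3 itself overlapped between CK (342 to 413 CPM) and DCM (394 to 474 CPM), as did Dcn (751 to 862 and 747 to 795 CPM). The separation of CK from DCM is thus relative to the marker sum, which includes Col3a1, and need not hold for each marker.

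**Figure D3:**
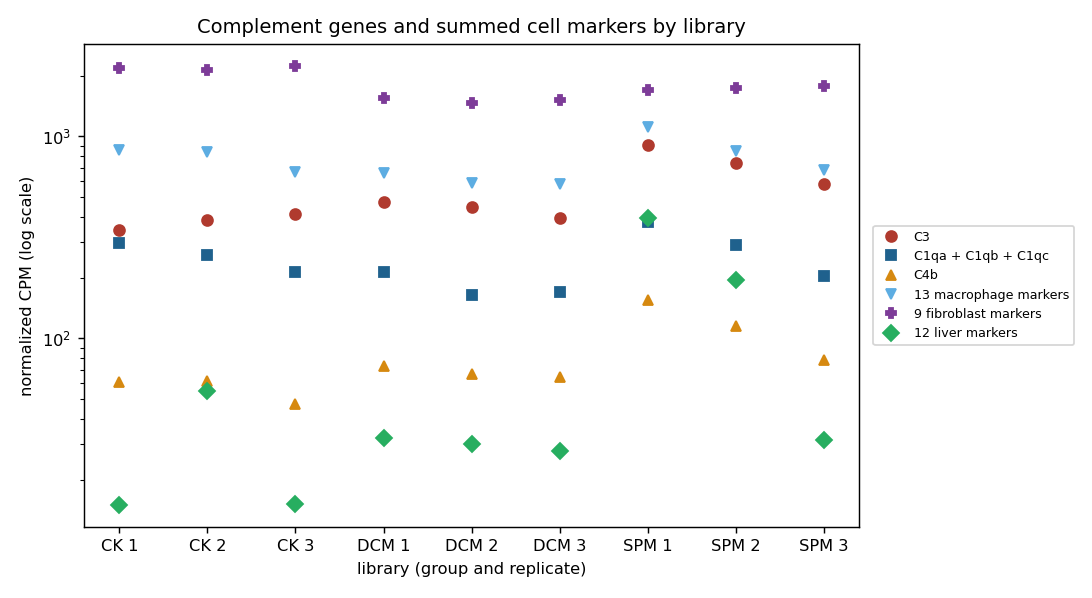
Normalized CPM (log axis) of C3, C4b and the summed C1q chains beside the summed macrophage, fibroblast and liver markers in each of the 9 libraries. The C1q points and the macrophage markers are both lowest in DCM by mean level, C3 and C4b are highest in SPM, and the liver markers reach 393 CPM in SPM replicate 1 but stay at 31.3 CPM in SPM replicate 3.

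Markers of other cell types also differed between the groups. The 7 neutrophil markers, led by S100a9 and Csf3r, summed to 5.48 to 25.6 CPM in CK, 11.9 to 27.7 CPM in DCM and 29.9 to 58.8 CPM in SPM, and all 5 that were tested rose in SPM against DCM. The 10 interferon response genes, led by Bst2 and Irf7, summed to 273 to 423 CPM in CK, 198 to 233 CPM in DCM and 242 to 282 CPM in SPM. Of these 6 of 10 fell in DCM against CK and 1 of 10 rose in SPM against DCM. The share of DEGs among all genes tested was 4.34% between DCM and CK, 3.59% between SPM and DCM and 9.21% between SPM and CK. The 6 mesothelial markers, led by Upk3b and Msln, ranged from 32.9 to 97.6 CPM in all libraries. Of 7 endothelial markers, led by Cdh5 and Pecam1, 1 fell in SPM against CK, and of 7 adipocyte markers, led by Thrsp and Cidea, 1 rose in DCM against CK. The 5 cardiomyocyte markers, led by Myh6 and Mb, summed to 41330 to 46118 CPM in CK, 38866 to 44447 CPM in DCM and 32505 to 38781 CPM in SPM, lowest in SPM replicate 1, and none of them was a DEG. Every SPM library was below every DCM and CK library in this sum, but SPM replicate 3 (38781 CPM) only narrowly so against DCM replicate 1 (38866 CPM). The share of mitochondrial genes was highest in SPM, at 21.0% to 21.1% of a library, against 15.5% to 18.9% for the DCM libraries and 13.7% to 16.2% for the controls. With these genes left out, 7 of the 9 complement genes were DEGs between SPM and DCM, the same number as with them. The share of all genes that were DEGs in that fit was not counted. Leaving genes out rescales a library and does not change its other RNA, so this fit cannot show what the mitochondrial share reflects. The part of these markers and of the mitochondrial share in the complement values was not tested.

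Of these 45 complement genes, 30 could be tested between DCM and CK, and 1 of them, C7, was a DEG. C7, a component of the membrane attack complex, fell from 24.6, 28.3 and 26.5 CPM in CK to 14.98, 16.3 and 14.2 CPM in DCM, by 0.81 on the log2 scale (SE 0.096; edgeR, adjusted p = 0.000267). It was lower still in SPM replicates 1 and 2, at 7.33 and 11.6 CPM, and at 15.01 CPM in SPM replicate 3, and fell by 1.24 against CK (adjusted p = 0.00459). Without SPM replicates 1 and 2 and CK replicate 2 it was at -0.76 (adjusted p = 0.0618). Between SPM and DCM, 11 of 31 tested genes were upregulated, 7 of them described above, and none was downregulated. Between SPM and CK, 3 of 34 were upregulated and 2 downregulated. Of all genes tested, 4.34% were DEGs between DCM and CK, 3.59% between SPM and DCM and 9.21% between SPM and CK.

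Among the receptors, 3 of the 7 tested rose in SPM against DCM, where 2.7% of all genes tested were upregulated DEGs. Besides C3ar1 these were C5ar1, the receptor for C5a, with a log2 fold change of 0.70 ± 0.15 (edgeR, adjusted p = 0.0162), and Vsig4, a macrophage receptor for C3 fragments, with 0.70 ± 0.21 (adjusted p = 0.0465). Vsig4 stood at 3.64, 3.94 and 1.36 CPM in CK, 5.45, 8.23 and 5.33 CPM in the DCM libraries and 12.6, 10.7 and 7.55 CPM in the SPM libraries, and rose by 1.77 ± 0.34 against CK (adjusted p = 0.00738), with 1.60 (adjusted p = 0.12) without SPM replicates 1 and 2 and CK replicate 2. Vsig4 was higher in every DCM than in every CK library, opposite to the C1q chains, with a log2 fold change of 1.079 ± 0.32 (adjusted p = 0.0503). Cd93, an endothelial glycoprotein first described as a C1q receptor, stood at 231, 211 and 207 CPM in CK, 161, 154 and 155 CPM in the DCM libraries and 115, 141 and 167 CPM in the SPM libraries. It fell by 0.62 in SPM against CK (adjusted p = 0.0074), with -0.38 (adjusted p = 0.164) without the same 3 libraries. In DCM it was also below all CK libraries, at -0.46 ± 0.071 and under the fold limit (adjusted p = 0.00141), and it was at -0.15 between SPM and DCM (adjusted p = 0.361). Itgb2, the beta chain shared by integrin receptors for C3 fragments, was at 0.53 ± 0.11 between SPM and DCM, under the fold limit (adjusted p = 0.018), where 16.6% of all genes passed the adjusted p alone.

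Of the 4 fluid-phase regulators tested, Clu was the most abundant, with a mean of 439 FPKM in CK, 473 in DCM and 468 in SPM. Serping1 averaged 110, 106 and 120 FPKM, and neither was a DEG in any comparison. Vtn, or vitronectin, which keeps terminal complexes from inserting into membranes, averaged 30.3 FPKM in CK and 22.9 FPKM in both DCM and SPM. It was at -0.31 ± 0.091 on the log2 scale between SPM and CK, under the fold limit (edgeR, adjusted p = 0.0362). Of the 5 membrane regulators tested, only Cd55 was a DEG, between SPM and DCM. Cd59a, which blocks the membrane attack complex, averaged 30.03, 29.8 and 29.7 FPKM in CK, DCM and SPM, Cr1l 17.9, 15.3 and 17.4 FPKM, and Cd59b 2.87, 3.22 and 2.93 FPKM.

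Of the lectin and alternative pathways, Colec11, Masp1, Cfd and Cfp were tested, and none of these 4 was a DEG in any comparison in the main edgeR fit. With the replicate block, Cfp and Cfd were DEGs between SPM and DCM. Without the low-count filter, Cfd was a DEG between DCM and CK, and Cfp between SPM and DCM. Colec11 and Masp1, of the lectin pathway, averaged 31.3 and 2.72 FPKM in CK, 27.02 and 2.87 in DCM, and 22.5 and 3.19 in SPM. Cfd, the protease of the alternative pathway made by fat cells, varied from 10.5 to 100 CPM within CK alone, and Cfp, or properdin, stood at 26.3, 17.1 and 9.60 CPM in SPM. Factor B (Cfb) was not analysed here.

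Transcripts typical of liver complement were counted mainly in the libraries with Alb. C8a had 118 and 28 counts in SPM replicates 1 and 2, 11 in CK replicate 2 and 0 in the other 6 libraries. C9 had 29 and 21 counts in SPM replicates 1 and 2, 2 in CK replicate 2 and 0 elsewhere, and Mbl1 had 18 and 9 counts in SPM replicates 1 and 2 and 0 elsewhere. The DEGs C4a and C6 between SPM and DCM, with log2 fold changes of 2.05 ± 0.52 (edgeR, adjusted p = 0.028) and 2.22 ± 0.68 (adjusted p = 0.0497), were low in all libraries. C6 was measured at 3.23, 1.03 and 0.488 CPM in SPM, where Alb showed the same order, against 0.203 to 0.586 CPM in DCM. C8g averaged 1.86, 1.64 and 1.84 FPKM in CK, DCM and SPM, and C2 had 0 to 7 counts per library. Without SPM replicates 1 and 2, 0 of the complement genes tested between SPM and DCM were DEGs by edgeR, with 2 of the 9 main genes, and 16% of all genes tested, below an unadjusted p of 0.05. The log2 fold change of C5ar1 was then 0.36 (adjusted p = 0.38), that of Vsig4 0.26 (adjusted p = 0.656), that of C4a 1.05 (adjusted p = 0.673) and that of C6 0.52 (adjusted p = 0.844).

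**Figure D4:**
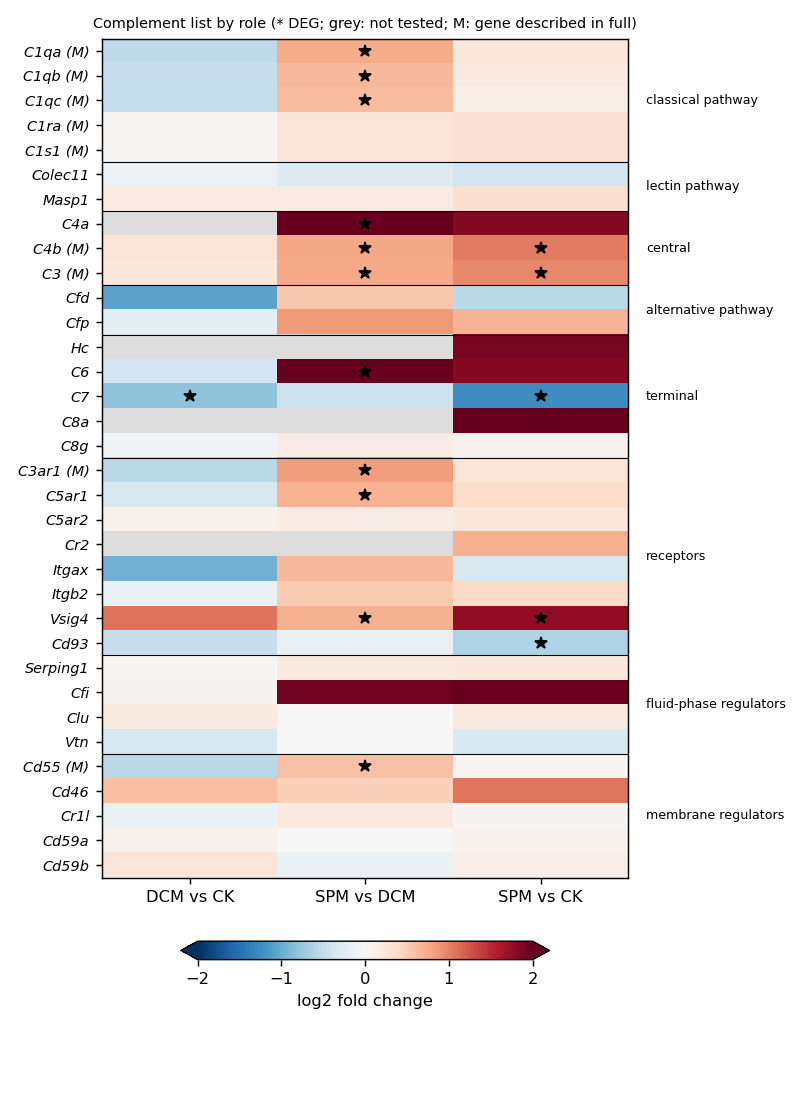
Log2 fold changes (color, clipped at the ends of the scale) of the complement genes tested in at least 1 comparison, by role, for DCM against CK, SPM against DCM and SPM against CK. Stars mark DEGs, grey marks genes not tested, and M marks the 9 genes described in full: 11 stars stand in the column for SPM against DCM, against 1 for DCM against CK and 5 for SPM against CK.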

How the data were processed

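RNA-seq of mouse myocardium was deposited for 9 libraries, 3 each of CK, DCM and SPM, and groups were taken from the sample labels. The authors deposited counts, whole numbers per gene and library, and FPKM values, which equal the count divided by a length per gene and by the library total (largest relative deviation 8.6e-13). For the 9 genes this length is that of the longest transcript in GENCODE M21. Reads were filtered with fastp, per the study's methods. The submitters' processing notes name Bowtie 0.12.2 and the builds mm8 and mm9, and the counting tool is not given in the sources used here. Gene names (22820 of 22851 identifiers) and coordinates came from GENCODE M21 (GRCm38), and promoters from RefSeq, which had entries for 7 of the 9 genes, without C1qa and C4b.

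Pairs of groups were tested on counts with edgeR 4.0.16 (quasi-likelihood, filterByExpr, TMM) in R 4.3.3, with Benjamini-Hochberg adjustment over all genes tested, and a DEG had to pass 0.05 by adjusted p and 1.5 by fold change, the limits of the study. The SE is the size of the log2 fold change divided by the square root of F. CPM were normalized by TMM over the 9 libraries (factors 0.967 to 1.05). Alternatives were DESeq2 1.42.0, RLE normalization, no low-count filter, no fold limit, all libraries in 1 fit, a replicate block, limma 3.58.1 on log2 FPKM + 0.1, correction for GC content, omission of mitochondrial genes (13.7% to 21.1% of counts) and omission of each library. Fits without the libraries holding liver transcripts were added after seeing the data. The steps were tested on simulated data. Named besides the 9 genes were DEGs of the complement list, the copies of members, the 3 most abundant other genes of each role, the 3 genes most alike each member by Pearson r and the 2 most abundant of each marker list. 1 item is not reported here and was left out of the list and its counts. C8a and C9 were named after their values were seen. The genes and lists were chosen with earlier results of these data known.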

Additional observations from a re-analysis of the deposited data

How the results depend on the processing

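Between DCM and CK, 0 of the 9 genes were DEGs (edgeR; 7 at an unadjusted p of 0.05), against 2 without the fold limit, 1 with limma and 0 to 3 without single libraries. The complement list had 1 DEG, against 4 without the fold limit, 5 without the low-count filter, 2 with DESeq2, RLE normalization, all libraries in 1 fit, limma, GC correction or no mitochondrial genes, and 1 to 5 without single libraries (4 without CK replicate 1, 3 without CK replicate 3 and 5 without DCM replicate 1). Between SPM and DCM, 7 members became 3 with DESeq2, 1 with limma, 4 with GC correction, 0 to 7 without single libraries and 0 without SPM replicates 1 and 2. The 11 of the list became 7, 2, 6, 0 to 18 and 0 in the same order, and 17 without the low-count filter. Single omissions gave 3, 0 and 5 without DCM replicates 1 to 3 and 1, 0 and 18 without SPM replicates 1 to 3. Between SPM and CK, 2 members stayed 2 without single libraries and became 1 without SPM replicates 1 and 2 and CK replicate 2. The 5 of the list became 9 without the fold limit, 8 with DESeq2 or without the low-count filter, 4 to 12 without single libraries (12 without SPM replicate 3), and 1 without those 3 libraries. Except without the fold limit, the share of all genes that were DEGs was not counted in the alternative fits. Cd55 in SPM was 12.3 CPM on total counts. The C1q ratio in FPKM was 2.39, 1.48 and 1.43 in CK, DCM and SPM, and by counts C1qa made up 36.0% and C1qc 30.3% of C1q.

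Signs turned for small log2 fold changes. Between DCM and CK, C1ra was at -0.070 with limma and at -0.048 to 0.079 without single libraries, and C1s1 at -0.043 and at -0.065 to 0.134. Between SPM and DCM, Cd93 went to 0.090 without SPM replicates 1 and 2. Between SPM and CK without single libraries, C1qa ranged from -0.036 to 0.411, C1qb from -0.049 to 0.386, C1qc from -0.090 to 0.334 and Cd55 from -0.089 to 0.149, while C3ar1 ranged from 0.021 to 0.546. Without SPM replicates 1 and 2 and CK replicate 2, C1qa, C1qb, C1qc and C3ar1 were at -0.28, -0.32, -0.36 and -0.33. Cd55 was at -0.043 with limma and -0.13 with GC correction. The cause was not tested for any of these, beyond the fewer samples in fits that left out libraries.

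Libraries of the same replicate number did not deviate together (residual correlations from -0.0746 to 0.205, others from -0.284 to 0.217), so the numbers do not pair them. With the replicate block, 0, 7 and 2 of the 9 genes were DEGs in the order DCM against CK, SPM against DCM and SPM against CK, as without it, and 2, 12 and 6 of the list.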
